A study of Homo sapiens with 3 samples.

Results

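Of the 376269 peaks listed for ZBTB11 and for normal IgG in NCI-H1299 cells, 2658 lay on scaffolds, the stretches of the human hg38 assembly that have not been given a position on chromosomes 1 to 22, X or Y. They were chosen by sequence name alone, as every listed peak outside those chromosomes and the mitochondrial genome. The ZBTB11 list held 1497 of them among its 348392 peaks and the IgG list held 1161 among its 27877. The study mapped where ZBTB11, a protein with a BTB domain and zinc fingers, sits on chromatin by sequencing the DNA that an antibody pulls down from fixed chromatin (ChIP-seq). NCI-H1299 is an established human lung cancer cell line, and all cells were WT by genotype, grown in DMEM with serum, given no treatment and fixed with formaldehyde. The groups differed in the antibody alone, one raised to ZBTB11 (Bethyl) or, as the negative control, IgG (CST). Each antibody had 1 library, so no difference below has a replicate check. Input DNA was not analysed here. All intervals given are 95% intervals that cover counting error only.

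Scaffolds hold the sequence that is hardest to assemble. Ribosomal DNA is a tandem array of units that each encode a 45S precursor, from which the 18S, 5.8S and 28S RNAs of the ribosome are cut, separated by a spacer. Alpha satellite is the tandem repeat of the centromeres, GGAAT-type satellite (human satellites II and III) fills large blocks next to some centromeres and on the Y chromosome, and beta satellite is a shorter tandem repeat found near the centromeres and on the short arms of the acrocentric chromosomes. Other scaffolds are copies of segmental duplications and hold near-identical copies of genes and promoters on the chromosomes. A read from any of these repeats matches many places, and how the aligner's choice among them was treated is not given in the sources used here.

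Strength is given throughout as the whole number of fragments piled up at a peak's summit, which was solved for each peak from its listed enrichment and p-value. The library's genome-wide background was 1.35 fragments for ZBTB11 and 1.55 for IgG, a ratio of 0.873. Every peak was placed in a class from the 1 kb of reference sequence around its summit. The classes were ribosomal, GGAAT-type satellite, alpha-type satellite, other tandem (another regular period), other repeated and unique. Other repeated windows have no period regular enough for the rule, but most of their 31-base words occur more than once in the assembly.

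The sequences under the strongest peaks are shown first, because they show what the classes are. At chrUn_KI270438v1:109168-110656 (hg38, as for all positions here) ZBTB11 had 344 fragments and IgG 429, the highest pileups of either list on scaffolds. The 121 bases around its ZBTB11 summit, chrUn_KI270438v1:109916-110036, are given with each GGAAT or ATTCC in capitals.
GGAAT-type: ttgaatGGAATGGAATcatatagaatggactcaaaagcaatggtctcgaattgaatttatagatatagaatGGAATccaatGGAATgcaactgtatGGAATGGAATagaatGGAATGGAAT
In the whole 1 kb window, 34% of bases lay in these 5-base words.

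The smallest p-value of the ZBTB11 list on scaffolds belonged to chrUn_GL000216v2:149358-149864, with 175 fragments against 205 for IgG. Its window repeats with a period of 68 bp, the length of a beta satellite unit. Of its bases 51.4% equalled the base 68 bp away, too few for a tandem class, so the peak is classed as other repeated. The 3 consecutive units near the summit that match best, chrUn_GL000216v2:149501-149704, are shown. The 53 positions that are the same in all of them are in capitals.
68-bp unit 1: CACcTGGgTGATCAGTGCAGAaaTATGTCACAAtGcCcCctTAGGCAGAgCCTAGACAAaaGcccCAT
68-bp unit 2: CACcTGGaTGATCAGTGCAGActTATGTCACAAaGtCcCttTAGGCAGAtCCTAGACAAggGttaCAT
68-bp unit 3: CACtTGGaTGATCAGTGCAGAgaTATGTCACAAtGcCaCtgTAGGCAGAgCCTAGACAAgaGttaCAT

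A second repeat, with a period of 42 bp and few G or C bases, fills several short scaffolds. On chrUn_KI270337v1, which is 1121 bp long, 41 of 42 positions were the same in the 3 best matching consecutive units near the summit, chrUn_KI270337v1:753-878, and are in capitals.
42-bp unit 1: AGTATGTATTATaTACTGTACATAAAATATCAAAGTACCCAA
42-bp unit 2: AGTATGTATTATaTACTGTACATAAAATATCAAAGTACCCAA
42-bp unit 3: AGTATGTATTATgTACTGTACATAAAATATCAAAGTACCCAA

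The alpha-type scaffold chrUn_GL000226v1 repeats at 171 bp. Of the pairs of consecutive units near its highest ZBTB11 peak, the best matching pair (chrUn_GL000226v1:4761-5102) shared 133 of 171 positions, in capitals.
alpha-type unit 1: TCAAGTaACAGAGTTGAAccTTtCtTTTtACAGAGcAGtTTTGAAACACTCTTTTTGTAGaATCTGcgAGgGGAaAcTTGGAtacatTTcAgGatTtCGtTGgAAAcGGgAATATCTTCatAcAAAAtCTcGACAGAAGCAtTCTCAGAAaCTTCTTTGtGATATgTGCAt
alpha-type unit 2: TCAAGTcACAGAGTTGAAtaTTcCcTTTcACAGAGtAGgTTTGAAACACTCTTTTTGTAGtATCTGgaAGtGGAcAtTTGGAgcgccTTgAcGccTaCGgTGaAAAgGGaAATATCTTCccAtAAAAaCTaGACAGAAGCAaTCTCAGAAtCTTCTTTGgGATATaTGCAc

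A different kind of sequence lay under some of the peaks that were strong for ZBTB11 and weak or unlisted for IgG. The regions printed were picked because they hold the motif that the study derived from its ZBTB11 peaks, CCGGAAG or CAGGAAG on either strand. Peaks of this kind without the motif, named below, are not printed. Of the 81 ZBTB11 peaks of q 0.05 or less without IgG overlap, 2 (2.47%) held the motif in the 101 bases around the summit, against 2.20% of all such windows on scaffolds. The chrUn_GL000221v1 and chrUn_KI270742v1 peaks overlap an IgG peak and are not among the 81. Of the 12 overlapping pairs with at least 2 times as many ZBTB11 as IgG fragments, chrUn_GL000221v1 alone held it in that window. The motif is in capitals in the strand that reads CCGGAAG. The chromosome 21 line is the copy of the first region on a placed chromosome.
chrUn_GL000221v1:79974-80060: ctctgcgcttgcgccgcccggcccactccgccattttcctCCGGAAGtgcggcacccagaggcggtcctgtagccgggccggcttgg
chrUn_KI270742v1:109938-110024: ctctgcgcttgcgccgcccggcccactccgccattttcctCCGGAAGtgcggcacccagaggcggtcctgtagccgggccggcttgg
chr21:9324991-9325077: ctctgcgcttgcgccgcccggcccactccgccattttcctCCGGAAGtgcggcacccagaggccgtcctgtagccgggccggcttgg
chrUn_GL000194v1:115009-115095: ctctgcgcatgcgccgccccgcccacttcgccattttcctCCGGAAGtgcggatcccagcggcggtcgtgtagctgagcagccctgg
The first and second of these 87-base stretches were identical, the chromosome 21 copy matched them at 86 positions and the chrUn_GL000194v1 stretch at 75.

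The assembly has 169 scaffolds, 42 unlocalised (assigned to a chromosome but not to a position) and 127 unplaced, with 11 Mb of known sequence, 0.372% of the genome. ZBTB11 peaks were listed on 122 scaffolds and IgG peaks on 110, of which 109 carried both. The 46 scaffolds with no peak were short, with a median length of 1769 bp against 40745 bp for those with a peak. The scaffolds carried 0.136 ZBTB11 peaks per kb against 0.118 on chromosomes 1 to 22, X and Y, a ratio of 1.16 (1.10 to 1.22). IgG peaks on placed chromosomes lay on chromosomes 1, 10, 21 and Y, so these are used for comparison wherever IgG enters. Why the IgG list holds peaks on these chromosomes alone is not given in the sources used here, and its total and the shares over its whole list hold for the list as analysed. There IgG had 0.0621 peaks per kb against 0.106 on scaffolds, a ratio of 1.70 (1.61 to 1.81), and ZBTB11 had 0.113, a ratio of 1.21 (1.15 to 1.27).

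Scaffold peaks passed stricter thresholds more often than the lists as a whole. A q-value of 0.05 or less was reached by 353 of 1497 ZBTB11 peaks (23.6%, 21.5 to 25.8), against 7.78% of the whole list. In the IgG list the count was 285 of 1161 (24.5%, 22.2 to 27.1), against 5.41%. At a p-value of 1e-05 or less, 228 ZBTB11 peaks (15.2%) and 259 IgG peaks (22.3%) remained, against 4.31% and 4.85% of the whole lists. With peaks of q 0.05 or less alone, the density on scaffolds was 3.53 times that on the main chromosomes for ZBTB11 and 9.15 times for IgG.

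The lists also overlapped each other more on scaffolds. Of the ZBTB11 scaffold peaks, 551 (36.8%, 34.4 to 39.3) shared at least 1 bp with an IgG peak, against 9.88% of ZBTB11 peaks on chromosomes 1, 10, 21 and Y. Of the IgG scaffold peaks, 545 (46.9%, 44.1 to 49.8) shared at least 1 bp with a ZBTB11 peak, against 18.1% on the same chromosomes. Scaffold peaks were wider, with a median of 349 bp against 291 bp for ZBTB11 and 372 bp against 301 bp for IgG, and the part of width in the overlap was not tested. The overlap rose with strength. Of the ZBTB11 peaks with at least 10 fragments, 80.1% (75.1 to 84.2, 237 of 296) overlapped an IgG peak, and of those with at least 50, 95.7% (85.8 to 98.8, 45 of 47) did. All 12 ZBTB11 peaks and all 19 IgG peaks with at least 100 fragments overlapped a peak of the other list.

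ZBTB11 had more scaffold peaks than IgG, by a ratio of 1.29 (1.19 to 1.39), but the ratio turned once peaks of few fragments were left out. The ZBTB11 list reached down to 3 fragments and the IgG list to 4. At least 5 fragments were reached by 1092 ZBTB11 and 1136 IgG peaks (ratio 0.961, 0.885 to 1.04). At least 10 fragments left 296 and 381 (ratio 0.777, 0.667 to 0.904), and at least 50 left 47 and 71 (ratio 0.662, 0.458 to 0.957).

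Scaffold by scaffold, the lists followed each other. Across the 123 scaffolds with a peak in either list, the rank correlation of peaks per kb was 0.651 (Spearman), and across the 73 of those with at least 10 kb it was 0.719. The correlation of peak numbers was 0.934, with scaffold length itself at 0.905 against ZBTB11 peak number. These values describe scaffolds that share their libraries and depth. The scaffold with most peaks was chrUn_KI270442v1, of 392061 bp, with 72 ZBTB11 and 56 IgG peaks, followed by chrUn_GL000225v1 with 59 and 61 and chrUn_KI270727v1 with 52 and 32.

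**Figure D1:**
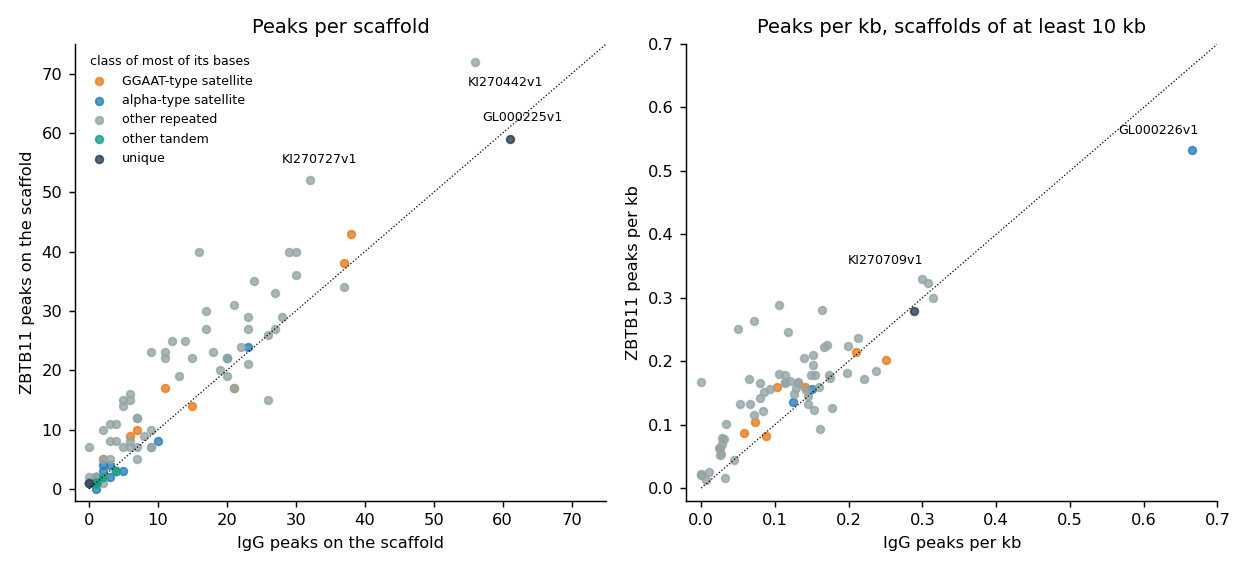
Each point is a scaffold, coloured by the class of most of its bases; the left panel plots the number of ZBTB11 against IgG peaks, the right panel peaks per kb for scaffolds of at least 10 kb, and dotted lines mark equality. Scaffolds with many peaks in 1 list had many in the other, and most points lie above the line of equality.

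Per kb, an alpha satellite scaffold led for ZBTB11. chrUn_GL000226v1, whose 15008 bp are all alpha-type, carried 0.533 ZBTB11 peaks per kb (8 peaks) and 0.666 IgG peaks per kb (10 peaks). It was followed for ZBTB11 by chrUn_KI270709v1 (0.329), chrUn_KI270757v1 (0.323), chrUn_KI270538v1 (0.299) and chrUn_KI270723v1 (0.289), counting scaffolds with at least 5 peaks, and other repeated sequence was the leading class on each of these 4, from 41.8% to 86.8% of bases. For IgG, chrUn_KI270515v1 came first with 0.786 (5 peaks on 6361 bp) and the other members of the leading 5 were those named for ZBTB11, without chrUn_KI270723v1. On chrUn_KI270723v1, an unlocalised scaffold of chromosome 14, there were 11 ZBTB11 and 4 IgG peaks, a ratio of 2.75 whose interval ran from 0.876 to 8.64.

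Of the 52 scaffolds with at least 10 peaks in a list, 41 had more ZBTB11 peaks, 9 more IgG peaks and 2 equal numbers. The interval of the ratio lay above 1 on 10 of them and below 1 on none. The highest ratios were 5.0 on chrUn_KI270717v1 (10 and 2 peaks), 3.67 on chrUn_KI270714v1 (11 and 3) and 3.0 on chrUn_KI270750v1 (15 and 5). These peaks were weak: the highest ZBTB11 pileup was 8 fragments on the first, 6 on the second and 5 on the third. The lowest ratio was 0.577 (0.306 to 1.09) on chrUn_GL000218v1, with 15 ZBTB11 and 26 IgG peaks, followed by chrUn_GL000226v1 (0.800), chrUn_KI270519v1 and chrUn_KI270438v1 (0.810 each). ZBTB11 peaks without any IgG peak were found on 13 scaffolds, with at most 7 peaks, on chrUn_KI270745v1, and only 1 scaffold had an IgG peak and no ZBTB11 peak.

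In strength, not adjusted for depth, the order was the reverse of that in number. The lists reach down to 3 (ZBTB11) and 4 (IgG) fragments, and the backgrounds were 1.35 and 1.55. The part of these differences in the order was not tested. On the 58 scaffolds with at least 5 peaks in both lists, the median pileup was higher for IgG on 55, higher for ZBTB11 on 1 and equal on 2. The rank correlation of the median pileups across these scaffolds was 0.811, and that of the highest pileups 0.756. Where a ZBTB11 peak overlapped an IgG peak, the ratio of their pileups had a median of 0.796 (quartiles 0.646 and 1.00, 551 pairs), beside 0.873 for the backgrounds. IgG was higher in 411 pairs, ZBTB11 was higher in 81 and 59 were equal. Summits of a pair lay a median of 97.0 bp apart, and 17.0 bp apart in the 40 pairs with at least 50 fragments in both. In those 40 pairs the ratio ranged from 0.538 to 1.46 around a median of 0.813.

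**Figure D2:**
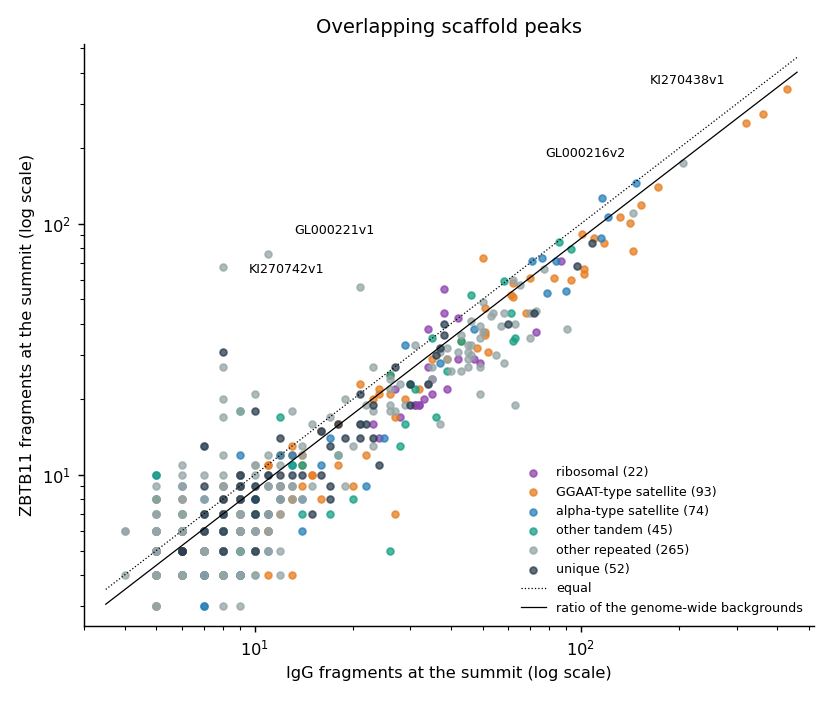
Each point is a ZBTB11 scaffold peak that overlaps an IgG peak, with the fragments at the IgG summit on the horizontal and at the ZBTB11 summit on the vertical axis (both log scales), coloured by class with the number of pairs in brackets. Strong pairs lie near the solid line, the ratio of the genome-wide backgrounds (0.873), and the regions on GL000221v1 and KI270742v1 stand far above it with 76 against 11 and 67 against 8 fragments.

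By class, 92.7% of ZBTB11 and 91.4% of IgG scaffold peaks lay in repeated sequence of any kind, and 94.6% of scaffold bases did. Satellites of the GGAAT, alpha and other tandem types held 367 ZBTB11 peaks (24.5%, 22.4 to 26.8) and 330 IgG peaks (28.4%, 25.9 to 31.1), against 19.4% of scaffold bases. These shares depended on the limits: they were 40.4% and 48.3% at a p-value of at most 1e-05, and 16.3% and 17.7% when a period had to be shared by 0.7 of bases in place of 0.6. On chromosomes 1, 10, 21 and Y the same classes held 2.49% of 48483 ZBTB11 and 3.99% of 26712 IgG peaks. Per kb of its own sequence, ribosomal DNA carried most, 0.419 ZBTB11 (0.293 to 0.599) and 0.405 IgG peaks. The other repeated class carried least, 0.121 ZBTB11 (0.114 to 0.129) and 0.0859 IgG peaks (0.0798 to 0.0925). That class alone had a ratio of ZBTB11 to IgG peaks with an interval above 1, at 1.41 (1.28 to 1.55), while the ratio ran from 1.03 to 1.12 in the other classes. The overlap of the lists was also highest in ribosomal DNA and lowest in other repeated sequence: 73.3% of ZBTB11 peaks in ribosomal DNA, 60% in GGAAT-type, 57.8% in alpha-type, 53.6% in other tandem and 47.7% in unique sequence overlapped an IgG peak, and 26.7% (24.1 to 29.6) in other repeated sequence.

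**Figure D3:**
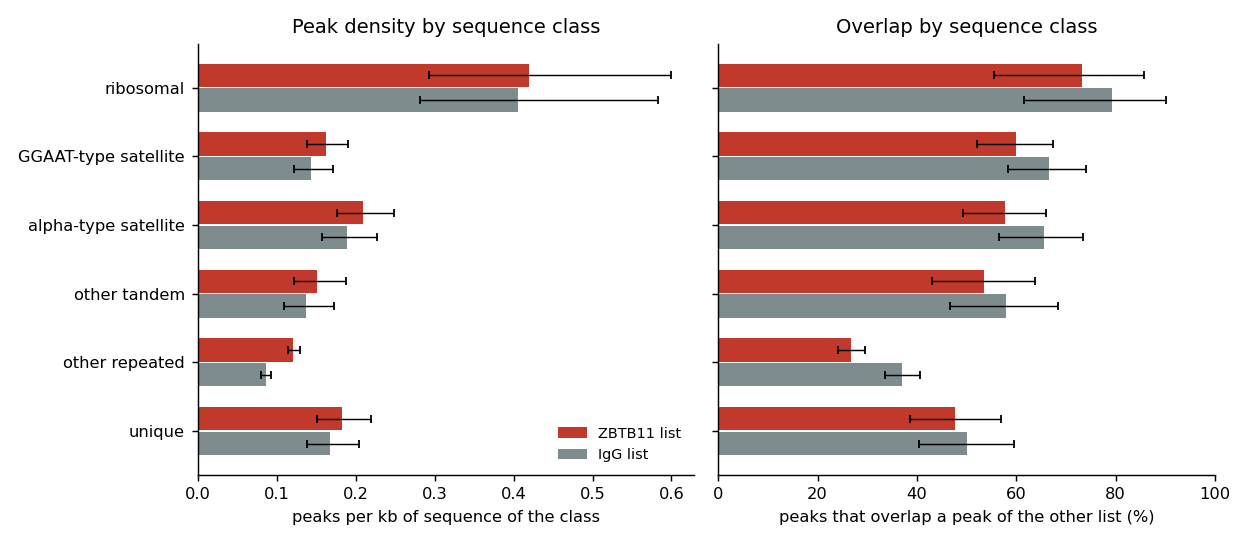
Horizontal bars give, for each sequence class, peaks per kb of that class on the scaffolds (left) and the percentage of peaks that overlap a peak of the other list (right), for the ZBTB11 list (red) and the IgG list (grey), with 95% counting intervals. Ribosomal DNA has the longest bars in both panels, and other repeated sequence the shortest.

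In GGAAT-type satellite, 155 ZBTB11 and 138 IgG peaks were listed, with median pileups of 7 and 11 fragments. The strongest stood on chrUn_KI270438v1, an unplaced scaffold that is 69.9% GGAAT-type. Beside the peak of 344 and 429 fragments shown above, chrUn_KI270438v1:103876-105124 had 253 ZBTB11 against 321 IgG fragments, with the summits 762 bp apart, and the IgG peak at chrUn_KI270438v1:111274-112431 had 362 against 274 for ZBTB11. On chrUn_KI270729v1, an unlocalised scaffold of chromosome 17 that is 74.4% GGAAT-type, the ZBTB11 peak at 24480-25351 had 119 fragments and the IgG peak over it 153. In all of these places IgG was the higher. The highest pileups on chrUn_KI270729v1 were 140 for ZBTB11 and 173 for IgG. Over the 93 GGAAT-type pairs the median ratio was 0.744 and the rank correlation of the pileups 0.920, and IgG was higher in 79. The strongest GGAAT-type IgG peak without a ZBTB11 peak was chrUn_KI270709v1:11260-11544, with 88 fragments over a local background of 40.3.

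Alpha-type sequence held 128 ZBTB11 and 116 IgG peaks. On chrUn_GL000226v1 the ZBTB11 peak at 4992-5848 had 145 fragments against 148 for IgG, and the peak at 13800-14894 had 88 against 115. The 31-base words of these windows occurred a median of 1964 and 2082 times in the assembly. Over the 74 alpha-type pairs the median pileup ratio was 0.750. The alpha class is defined by its period alone, and it took in windows of the 42-bp repeat, since 4 such units are as long as an alpha unit: 3 ZBTB11 and 4 IgG peaks in it are of that kind, and they are described next.

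The 42-bp repeat carried 6 ZBTB11 and 6 IgG peaks on 5 unplaced scaffolds of 1026 to 3920 bp, and each peak overlapped a peak of the other list. ZBTB11 had 127 fragments on chrUn_KI270337v1 against 116 for IgG. On chrUn_KI270333v1 it had 79 against 93. On chrUn_KI270467v1 it had 85 against 86 in the stronger of the peaks there, and 38 against 47 in the other. On chrUn_KI270466v1 both lists had 35, and on chrUn_KI270336v1 the values were 33 and 29. Neither list was the higher throughout on these scaffolds. G and C made up 20.3% to 25.3% of the ZBTB11 windows.

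The class called unique by its 31-base words went against its name on chrUn_GL000225v1, an unlocalised scaffold of chromosome 14 with 46.9% of its bases in that class. Of the 109 ZBTB11 and 100 IgG peaks classed as unique on all scaffolds, 80 and 72 lay elsewhere. On chrUn_GL000225v1 the windows repeat with a period of 68 or 69 bp but too imperfectly for the rule: at chrUn_GL000225v1:67273-67706, with 84 ZBTB11 and 108 IgG fragments, 54.0% of bases equalled the base 69 bp away, and at 25330-25872, with 68 and 97, the share was 45.9%. In all, 44 of its 59 ZBTB11 and 40 of its 61 IgG peaks had a q-value of at most 0.05. With a share of at least 0.4 at 67 to 70 bp, a limit set after these windows were seen, 50 ZBTB11 and 52 IgG peaks of the unique and other repeated classes formed a 68-bp group, 35 and 38 of them on chrUn_GL000225v1. It carried 0.302 ZBTB11 and 0.314 IgG peaks per kb of such sequence, and an IgG peak overlapped 40 of the 50 ZBTB11 peaks. The nearest sequence on placed chromosomes lay beside ROCK1P1, a pseudogene of the kinase gene ROCK1 on chromosome 18, for 30.4% of the 31-base words of the chrUn_GL000216v2 peak. That place, chr18:108446-108917, is 148 bp from the ROCK1P1 start, and the ZBTB11 peak there had 229 fragments. For 28.3% of the words of chrUn_GL000225v1:25330-25872 it lay at chrY:11312186-11312644, 2277 bp from the start of the DUX4-like pseudogene DUX4L17, with 82 ZBTB11 and 97 IgG fragments.

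Ribosomal sequence was found on chrUn_GL000220v1 and chrUn_KI270733v1. Each carries a whole 45S gene, at 105424-118780 and 122273-135645, and a further 45S that the end of the scaffold cuts off in the 28S, and all were placed by matching RNA45SN1 of chromosome 21. They held 30 ZBTB11 and 29 IgG peaks, with medians of 22 and 37 fragments. Both lists had 6 peaks in the 18S and 9 in the 28S. The transcribed spacers held 3 ZBTB11 and 6 IgG peaks, the stretch before the 45S held 8 and 6, and the stretch after it 4 and 2. The strongest of the class in both lists was chrUn_GL000220v1:119719-120307, with 71 ZBTB11 and 87 IgG fragments and summits 12 bp apart. It began less than 1 kb past the end of the 45S. Its 121 bases around the ZBTB11 summit, chrUn_GL000220v1:119823-119943, hold the letters GGTCGACC, the core of the Sal box at which transcription of ribosomal genes is known to end.
ribosomal: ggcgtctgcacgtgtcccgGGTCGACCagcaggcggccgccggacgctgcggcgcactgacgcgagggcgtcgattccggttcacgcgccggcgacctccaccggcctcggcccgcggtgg
These letters, which read the same on both strands, occurred 35 times on all scaffolds and in 0.0298% of windows of this length. Of those, 7 lay in the 2000 bp after the whole 45S of chrUn_GL000220v1 and 11 in the same stretch of chrUn_KI270733v1.

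The ratio of overlapping peaks differed by place within the ribosomal unit. In the 18S, each of the 4 copies had an overlapping pair, and ZBTB11 was higher in 3 and equal in 1: 38 against 34 and 42 against 42 fragments on chrUn_GL000220v1, and 55 against 38 and 44 against 38 on chrUn_KI270733v1. Summits of these pairs lay 221 to 459 bp apart, so the ratios do not compare the same base. The ZBTB11 peaks of 38 and 55 fragments each overlapped more than 1 IgG peak. The other 2 ZBTB11 peaks in the 18S, of 22 and 20 fragments on chrUn_KI270733v1, overlapped no IgG peak. In the 18 pairs of the ribosomal class outside the 18S, IgG was higher in every pair. The ratio ran from 0.507 to 0.816 against 1.00 to 1.45 in the 18S. Some of these 18 pairs share an IgG peak, and their summits lay up to 713 bp apart. Pairs between the 45S copies beyond the reach of the class are not among them, and the ratio went lower there. At chrUn_KI270733v1:141500-141965 ZBTB11 had 19 fragments and IgG 63. The copies are near-identical in sequence and are not independent measurements. The IgG peak of 57 fragments at chrUn_KI270733v1:122698-123251, 634 bp into the transcribed spacer and 77.4% G and C, had no ZBTB11 peak over it, and at 106332-106864 on chrUn_GL000220v1 the same held for an IgG peak of 42 fragments. On chromosome 21, within 5 kb of the 3 annotated 45S genes RNA45SN1, RNA45SN2 and RNA45SN3, ZBTB11 had 6, 10 and 8 peaks of up to 47, 38 and 50 fragments, and IgG had 9, 8 and 12 of up to 52, 71 and 52.

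**Figure D4:**
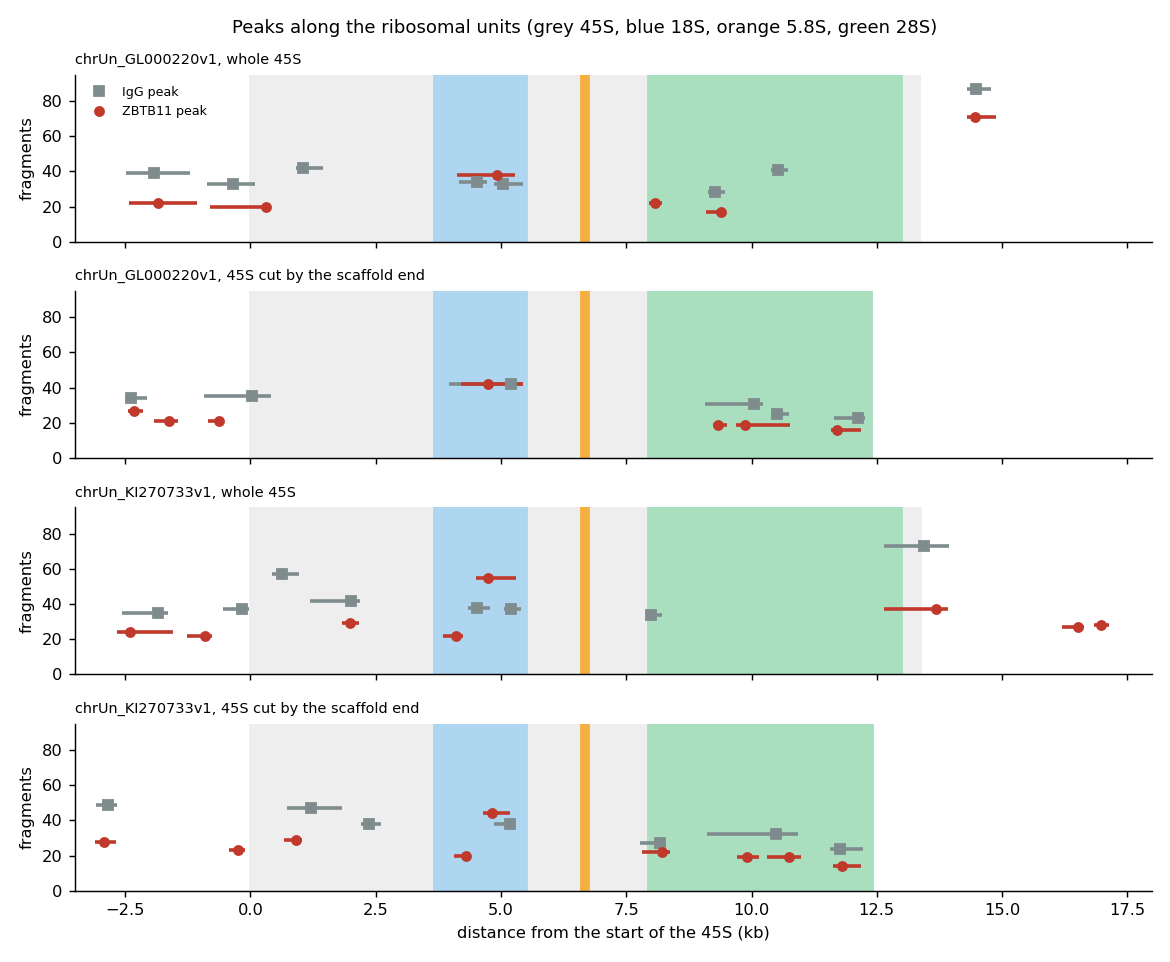
Each panel shows 1 of the 4 ribosomal units and its peaks of the ribosomal class. Distance from the 45S start in kb is on the horizontal and fragments at the summit on the vertical axis. Lines span the peaks, markers stand at the summits, and shading marks 45S, 18S, 5.8S and 28S. Where peaks of the lists overlap, the ZBTB11 marker reaches or exceeds the IgG marker in the 18S and lies below it elsewhere, while ZBTB11 peaks of 22 and 20 fragments in the 18S of chrUn_KI270733v1 have no IgG peak over them.

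Against this shared pattern, few regions were strong for ZBTB11 and weak or unlisted for IgG. ZBTB11 exceeded IgG at least 2 times in 12 of 551 pairs, and IgG had at least 2 times the fragments of ZBTB11 in 57. The highest ratios were 8.38 at chrUn_KI270742v1:109527-110363 (67 against 8 fragments) and 6.91 at chrUn_GL000221v1:79712-80253 (76 against 11), the regions whose sequences are printed above. Both hold CCGGAAG once, 20 bp from the ZBTB11 summit on chrUn_GL000221v1 and 67 bp from it on chrUn_KI270742v1. Of the 12 pairs, chrUn_GL000221v1 alone held the motif in the 101 bases around the summit. Anywhere in the peak, 8.95% of all ZBTB11 scaffold peaks held it. For chrUn_GL000221v1 and chrUn_KI270742v1, the place on the main chromosomes that shared most 31-base words (86.5% and 83.0%) was the transcript start of ENSG00000278932, a lncRNA of chromosome 21. ZBTB11 had 24 fragments there and IgG 8. Of the other pairs in this group, chrUn_KI270713v1:21578-22573 had 56 against 21 and chrUn_GL000219v1:99143-99942 had 31 against 8. These 2 were named after their values were seen.

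Among ZBTB11 peaks that no IgG peak overlapped, 81 had a q-value of at most 0.05, of which 22 (27.2%) were ribosomal or satellite. Their median G and C content was 38.7%, and 15 (18.5%) had at least 50%. The 5 of smallest p-value differed from most of the 81 in their G and C content, at 54.2% to 73.1%. All 5 lay in other repeated sequence. chrUn_GL000195v1:86203-87311 had 51 fragments and chrUn_GL000218v1:97005-97897 had 35. On chrUn_KI270728v1, an unlocalised scaffold of chromosome 16, 1816356-1817195 had 23 and 1854619-1855488 had 22 fragments, and chrUn_GL000194v1:114777-115454 had 21. The placed copies of 4 of these 5 regions contain an annotated transcript start, a share that was not computed for scaffold sequence at large. The chrUn_GL000218v1 and chrUn_GL000194v1 regions both match the start of TEKT4P2, a pseudogene of the tektin gene TEKT4 on chromosome 21 (71% and 71.3% of 31-base words), where ZBTB11 had 11 fragments and no IgG peak was listed. The chrUn_GL000195v1 region matches the start of the lncRNA ENSG00000274333 on chromosome 21 (88.7%), with 5 ZBTB11 fragments and no IgG peak. chrUn_KI270728v1:1854619-1855488 matches chr16:33554321-33555190 in all of its words, at the start of the lncRNA ENSG00000261466, and ZBTB11 had 21 fragments at that copy. CCGGAAG lay 25 bp from the summit on chrUn_GL000194v1 and 127 bp from it on chrUn_GL000218v1, and the first chrUn_KI270728v1 peak held CAGGAAG 460 bp from its summit. The chrUn_GL000195v1 and second chrUn_KI270728v1 peaks held no match to the motif. Of all ZBTB11 scaffold peaks, 8.95% held it somewhere in the peak.

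The same comparison over all peaks of q 0.05 or less in the unique and other repeated classes gave these counts. There were 196 such ZBTB11 peaks, of which 80 shared at least 50% of their 31-base words with a place on the main chromosomes, and 29 of these places lay within 3000 bp of a transcript start. Of 137 such IgG peaks, 45 had a matching place and 15 of these lay near a start. Among the ZBTB11 peaks that overlapped no IgG peak, 12 of the 33 matching places were near a start and 12 held a ZBTB11 peak, and of the 16 on chromosomes 1, 10, 21 and Y only 1 held an IgG peak. For the ZBTB11 peaks that did overlap an IgG peak, 17 of the 47 matching places were near a start, 26 held a ZBTB11 peak, and 14 of the 24 on those chromosomes held an IgG peak. Places near a start made up a similar part of each of these sets. The share near a start over all scaffold sequence was not computed, so it is not known whether these counts differ from it.

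Among IgG peaks that no ZBTB11 peak overlapped, 43 had a q-value of at most 0.05, of which 15 (34.9%) were ribosomal or satellite and 30.2% had at least 50% G and C. The 5 of smallest p-value were the ribosomal spacer peak of 57 fragments and the GGAAT-type peak of 88 fragments described above, chrUn_GL000225v1:56862-57375 with 27 fragments, chrUn_KI270715v1:160584-160899 with 12 in alpha-type sequence, and chrUn_KI270438v1:19931-20450 with 12. The motif was in the 101 bases around the summit in 0 of the 43 IgG peaks that had a q-value of at most 0.05 and no ZBTB11 overlap, which allows a share of up to 6.98%. It was in 2 of the 81 matching ZBTB11 windows (2.47%, 0.680 to 8.56), so no difference was detectable at these counts.

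The motif was rare around scaffold summits as a whole. It was found in 38 of 1497 ZBTB11 windows (2.54%, 1.85 to 3.46), 1.94% (1.50 to 2.5) of windows 500 bp to either side, and 2.20% of all windows of that length on the scaffolds. For IgG the share was 1.38% (0.850 to 2.23). Around ZBTB11 summits on chromosomes 1 to 22, X and Y it was 3.67% (3.61 to 3.73). Within the scaffold peaks, 2 of 397 ZBTB11 windows in ribosomal or satellite sequence and 36 of 1100 in the remaining classes (3.27%, 2.37 to 4.50) held it. The share at ZBTB11 summits was therefore not distinguishable from the flanks at this number of peaks. In both lists the share was lower on scaffolds than on the placed chromosomes. The share over all windows of the placed chromosomes was not computed.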

How the data were processed

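ChIP-seq peaks of NCI-H1299 cells were taken from the deposited narrow peak lists, 1 per antibody. Per the study's methods, the authors used BWA for alignment to hg38 and MACS for peaks, run apart on each antibody with a p-value limit of 0.05. The layout is that of a later MACS release, so the release is uncertain. The deposited fold enrichment is a ratio of summit to background, and p and q were deposited as −log10 values. The deposited score was not used. Pileups were solved from fold enrichment and p under a Poisson model with 1 added to pileup and background, and all scaffold peaks were solved to within 0.001 of the deposited −log10 p. Total reads per library are unknown, since the deposited files hold peaks alone. The solution and the classes were tested on simulated data.

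Scaffold names were matched to the hg38 reference by accession. A window of 1000 bp around the summit was classed, in this order, as ribosomal (at least 0.5 of its 31-base words within 10000 bp of a 5.8S gene of chromosome 21), GGAAT-type (at least 0.2 of bases in GGAAT or ATTCC), alpha-type (at least 0.6 of bases equal to the base a unit of about 171 bp away), other tandem (the same at another distance), other repeated or unique (median copy number of 31-base words above 1, or 1). Scaffold bases were classed in tiles of the same size. Matching places on chromosomes 1 to 22, X and Y were those with most shared 31-base words, and transcript starts came from GENCODE. The RefSeq gene table gave the ribosomal genes. Genes annotated on the scaffolds themselves were not analysed here. Sequences came from the hg38 reference.

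With 1 library per group no test was made. Intervals of shares are Wilson intervals, and those of count ratios and densities are Poisson intervals. The limit given for a count of 0 is 3 counts. Peaks and scaffolds were named by rank of p-value, density, number or ratio of counts within list and class, and the members, classes and lists were chosen with earlier results of these data known. Alternatives changed the p and q thresholds, the least pileup, the scaffolds, the overlap, the class limits and windows, and the motif window. Python 3.11.15, numpy 2.4.6, pandas 2.3.3 and scipy 1.17.1 were used.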

Additional observations from a re-analysis of the deposited data

How the results depend on the processing

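No paired analysis was possible because each antibody had 1 library. Of 82 alternative values, 32 stayed within the interval of the reported value, 46 left it and 4 turned the direction. The turned value is the ratio of ZBTB11 to IgG peaks on scaffolds: 1.29 as reported, 0.880 at p of 1e-05 or less, 0.961 with at least 5 fragments and, in alternatives chosen after seeing the data, 0.777 with at least 10 and 0.662 with at least 50 fragments. At q of 0.05 or less it was 1.24. The lists reach down to 3 (ZBTB11) and 4 (IgG) fragments, and the cause was not tested. It was 1.39 on unlocalised and 1.19 on unplaced scaffolds.

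At p of 1e-05 or less in both lists, overlap was 60.2% of IgG and 68% of ZBTB11 peaks, density over chromosomes 4.13 (ZBTB11) and 9.32 (IgG), the rank correlation 0.443, repeated sequence 86.8% of ZBTB11 peaks, satellites 40.4% (ZBTB11) and 48.3% (IgG) and the motif 4.82%. At q of 0.05 or less these values were, in the same order, 67.7%, 55.0%, 3.53, 9.15, 0.616, 87.3%, 39.1%, 46.7% and 3.40%, and the median pileup ratio was 0.759. With at least 5 fragments, overlap was 43.2% of IgG and 45.3% of ZBTB11 peaks and repeated sequence 91.1% of ZBTB11 peaks. On unlocalised scaffolds ZBTB11 overlap was 32.9% and densities 1.03 and 1.4 times those of the chromosomes, and on unplaced scaffolds 41.3%, 1.35 and 2.17. Requiring an overlap of at least 0.5 of both peaks gave 30.0% of IgG and 23.2% of ZBTB11 peaks. Narrower windows put 29.9% of ZBTB11 and 33.9% of IgG peaks in satellites, and a period share of 0.7 put 16.3% and 17.7% there. Words counted over scaffolds alone put 69.9% and 71.7% in repeated sequence. The motif in whole peaks was at 8.95%. The cause of these shifts was not tested.

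Further alternatives were chosen after seeing the data. A period share of 0.45 put 35.9% of ZBTB11 and 40.4% of IgG peaks in satellites and 95.8% and 95.1% in repeated sequence. Without chrUn_GL000225v1, repeated sequence held 94.4% and 93.5%. Without ribosomal and satellite windows, overlap was 27.2% of ZBTB11 and 36.8% of IgG peaks and the median pileup ratio 0.833.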
